A study of Mus musculus with 4 samples.

Results

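The replication-dependent histone genes encode the H1 linker histone and the H2A, H2B, H3 and H4 core histones that package newly copied DNA. They were taken as the rows whose symbol begins with Hist1h, Hist2h, Hist3h or Hist4h, which gave 35 of the 20555 genes in the table. By type these were 5 H1, 3 H2A, 10 H2B, 6 H3 and 11 H4 genes. One of the H2B entries, Hist3h2bb-ps, is annotated as a processed pseudogene. In GENCODE mouse release 21 (GRCm38), 26 of the members lie in the Hist1 cluster on chromosome 13, 4 in Hist2 on chromosome 3, 3 in Hist3 on chromosome 11 and 1, Hist4h4, on chromosome 6. The identifier of Hist1h2bh was not found in that release.

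Whole tumour pieces from mouse mammary gland were profiled by RNA-seq, and all the mice carried PyMT, the polyoma virus middle T antigen, an oncogene that drives mammary tumours. In the MYC-PyMT group (2 libraries), the mice also had an S100a8-driven Cre, whose promoter is most active in neutrophils, and a loxP-stop-loxP MYC allele in the Rosa26 locus. The Control-PyMT group (2 libraries) is labelled with PyMT alone. Strain, age and the species of the MYC allele are not given in the labels. The labels also do not say whether replicates are separate animals, and a p-value here therefore measures library-to-library spread, possibly of technical origin. The mouse Myc gene had 3215 and 2815 scaled counts (defined below) in MYC-PyMT and 1832 and 2820 in Control-PyMT, a difference that did not pass (adjusted p = 0.172), and reads of the transgene need not be counted under Myc.

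In cycling cells, messages of these genes are made in S phase and end just after a short RNA stem-loop in place of a poly(A) tail. The stem-loop is bound by SLBP, and cleavage needs the U7 small nuclear RNP. Some of the genes can also give longer polyadenylated messages that run past the stem-loop or splice around it, and such messages are known from differentiated cells. The libraries were poly(A)-selected, so the values below count the members' RNA that was retained by that selection, and messages ending at the stem-loop are expected to be lost.

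The stem-loops mark where messages without a poly(A) tail end. Letters of the histone stem-loop, 16 bases with a stem of 6 pairs, were sought in each gene's longest protein-coding transcript and found in 27 of the 34 members with an annotated transcript, and in all 27 the 6 positions of the stem could pair. Among 21833 other protein-coding genes (longest transcript, median length 2686 bases, against 758 bases in members), 5.10% held the letters and 0.188%, or 41 genes, also had all 6 pairs. In the sequences here, written 5′ to 3′ as DNA letters from GENCODE transcripts with 5 bases on each side, capitals mark the stem-loop of members whose values are described below.
Hist1h1c: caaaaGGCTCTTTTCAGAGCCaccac
Hist3h2a: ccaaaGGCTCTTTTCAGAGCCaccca
Hist1h2be: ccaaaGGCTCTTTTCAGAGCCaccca
Hist2h3c2: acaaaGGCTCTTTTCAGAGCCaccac
Hist1h4i: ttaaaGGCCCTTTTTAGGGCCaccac
Hist1h4h: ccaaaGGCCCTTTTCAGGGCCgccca
Hist2h4: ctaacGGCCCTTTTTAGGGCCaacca
The stem is the first 6 and last 6 capitals, and the letters between are the loop. The stem of Hist1h1c was that of all 3 H1, all 3 H2A, all 5 H2B and all 6 H3 genes with a match, which differed among themselves only in the loop. The H4 genes had other stems. Hist1h4h, Hist1h4i and Hist2h4 share 1 stem, found in 9 of 10 H4 genes with a match, and Hist1h4j had another. The whole 16 letters of Hist1h4h were found in 6 H4 genes, and those of Hist1h4i and Hist2h4 in 2.

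Where an annotated transcript runs past the stem-loop, it can carry a poly(A) signal of its own. AATAAA lay within 50 bases of the transcript's end in 9 of 34 members (26.5%), against 59.3% of the other protein-coding genes. Among members described below, Hist1h2bc, Hist1h4i, Hist1h2be, Hist1h1b and Hist2h3c2 had no AATAAA there. Ends that had it are shown for 5 members, with AATAAA in capitals.
Hist1h1c: gtatgcttctAATAAAaagcgtttagtttt
Hist3h2a: gtatatgcccAATAAAataagagtacgtgt
Hist2h2be: tattattattAATAAAgttaccgattagtt
Hist3h2ba: taatggtattAATAAAtttggttcaatttt
Hist2h4: gtatacataaAATAAAatcttaaaaacaac
In Hist1h1c the transcript ended 840 bases after the stem-loop and 20 bases after AATAAA. In Hist3h2a it ended 1643 bases after the stem-loop, in Hist2h4 1257 bases and in Hist3h2ba 169 bases. Hist2h2be had no match to the stem-loop letters in its 2620-base transcript. Hist1h2bc, an H2B gene, is annotated with 2 exons (chromosome 13, 23684199 to 23684621 and 23692176 to 23692908, plus strand), separated by an intron of 7554 bases, and its spliced transcript held no match either.

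**Figure D1:**
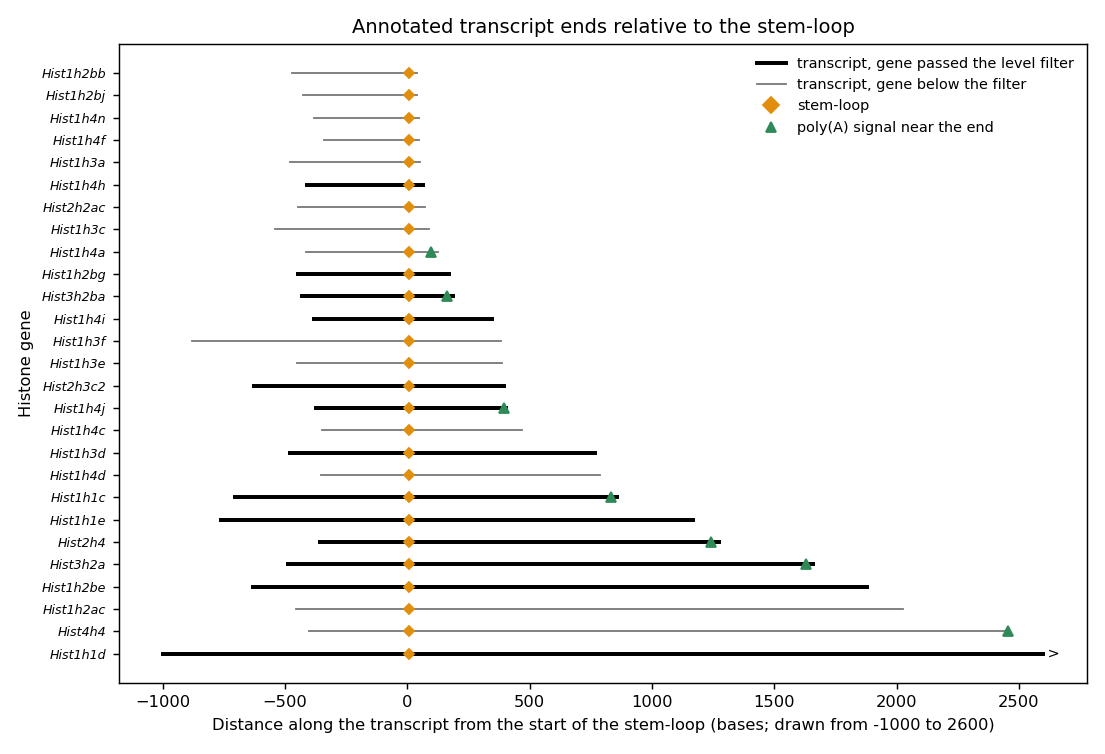
Annotated transcripts of the 27 members with a stem-loop, as lines along the distance in bases from the start of the stem-loop. Thick lines are genes that passed the level filter, triangles mark a poly(A) signal near the transcript's end, and the 8 transcripts that end under 100 bases after the stem-loop include 1 thick line, Hist1h4h.

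Each of the 35 members had a read in at least 1 library, and 24 had a read in all 4. Members with a read numbered 31 and 35 in MYC-PyMT replicates 1 and 2, and 28 and 33 in Control-PyMT replicates 1 and 2. Only 5 members in each MYC-PyMT library, and 6 and 7 in the Control-PyMT libraries, reached 100 scaled counts. Scaled counts are the authors' read counts divided by a size factor for each library, and 1 read was worth 1.01 and 1.10 scaled counts in MYC-PyMT and 0.935 and 0.849 in Control-PyMT. Of 34190913 and 31783846 reads in MYC-PyMT the members held 0.0304% and 0.0276%, against 0.0272% and 0.0272% of 32245080 and 32879311 reads in Control-PyMT.

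Read numbers are described here by the annotated end of the transcript. The 8 members whose transcript ends under 100 bases after the stem-loop, a limit set after the values were seen, had a median of 2.25 reads per library. Together they gave 0.510% and 0.728% of the members' summed scaled counts in MYC-PyMT and 0.662% and 1.91% in Control-PyMT. Of these only Hist1h4h, with 69.3 reads per library, passed the filter. The 19 members whose transcript runs 100 bases or more past the stem-loop had a median of 14.3 reads and gave 66.3% and 66.2% of the sum in MYC-PyMT and 65.7% and 64.2% in Control-PyMT. The 7 without the stem-loop letters, Hist1h2bc among them, gave 33.1% and 33.1% in MYC-PyMT and 33.6% and 33.8% in Control-PyMT. These 7 also include the pseudogene and the short annotated transcripts of Hist1h1a (741 bases), Hist1h1b (743) and Hist1h4k (312). Whether the annotation of these stops short of a stem-loop was not examined, so the class is not 1 kind of message. The part of the annotated end in these levels was not tested.

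A few genes made up nearly all of the signal. Hist1h1c and Hist1h2bc together held 83.4% and 77.9% of the members' summed scaled counts in MYC-PyMT, and 78.5% and 78.0% in Control-PyMT. With Hist1h4i added the share was 91.2% and 89.5% in MYC-PyMT, against 81.9% and 81.2% in Control-PyMT. Per kb of annotated transcript, the highest mean level in MYC-PyMT was that of Hist1h1c at 3243 scaled counts, followed by Hist1h2bc at 2649, Hist1h4i at 1325 and Hist3h2a at 207. In Control-PyMT the same measure gave 2469 for Hist1h1c, 2015 for Hist1h2bc, 362 for Hist1h4i and 301 for Hist3h2a.

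**Figure D2:**
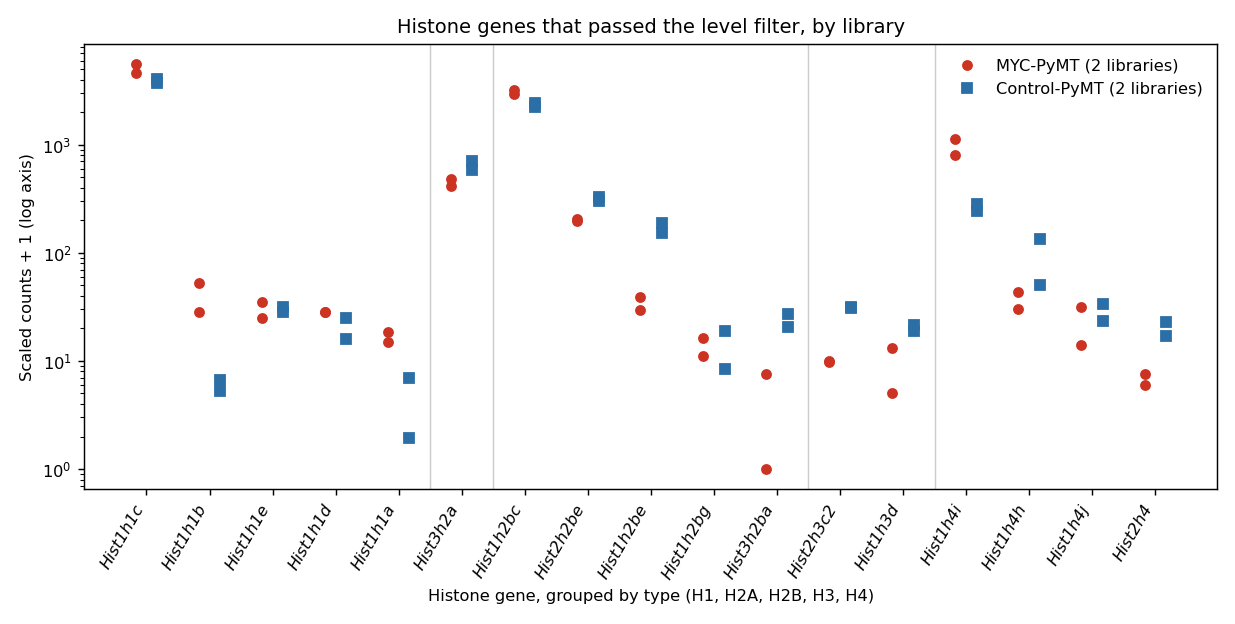
Scaled counts plus 1 (log axis) of the 17 histone genes that passed the level filter, with circles for the MYC-PyMT libraries and squares for the Control-PyMT libraries, ordered within each type by the MYC-PyMT mean. Hist1h1c and Hist1h2bc stand highest in both groups, and Hist1h4i is the H4 gene with the highest level.

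The comparison asks how the histone genes differ between MYC-PyMT and Control-PyMT tumours. Of the 17 members with at least 10 scaled counts in at least 2 libraries, 3 rose and 4 fell in MYC-PyMT, and 10 did not pass. The test was limma on log2(scaled counts + 1), two-sided, with Benjamini-Hochberg adjustment over all 16725 genes tested and a threshold of 0.05. The share of members called, 41.2%, stood beside 47.9% of all tested genes (23.3% higher and 24.6% lower). The members' median log2 change was -0.40, against -0.018 for all tested genes, whose middle 50% lay between -0.74 and 0.64. For 14 of the 17 members the libraries of each group lay apart from those of the other, as they did for 75.7% of all tested genes. Of the 7 called genes, 5 passed the level filter through 1 group alone, Hist1h1a and Hist1h1b through MYC-PyMT, and Hist3h2ba, Hist2h3c2 and Hist2h4 through Control-PyMT. Members of that kind had to differ, so these counts describe the members and support no statement about them as a set. Of the 12 members that passed the filter through both groups, 1 rose, 1 fell and 10 did not pass the test. The count that fell was 1 without Control-PyMT replicate 2 and by DESeq2, and 8 with the transcript length trend removed. With each library scaled to its total, 2 members rose and 6 fell, and 33.5% of all called genes were higher, against 48.6% in the main analysis, with the median of all genes shifted by -0.25. In bulk tumours, fewer cells of a type and less RNA per cell cannot be told apart.

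**Figure D3:**
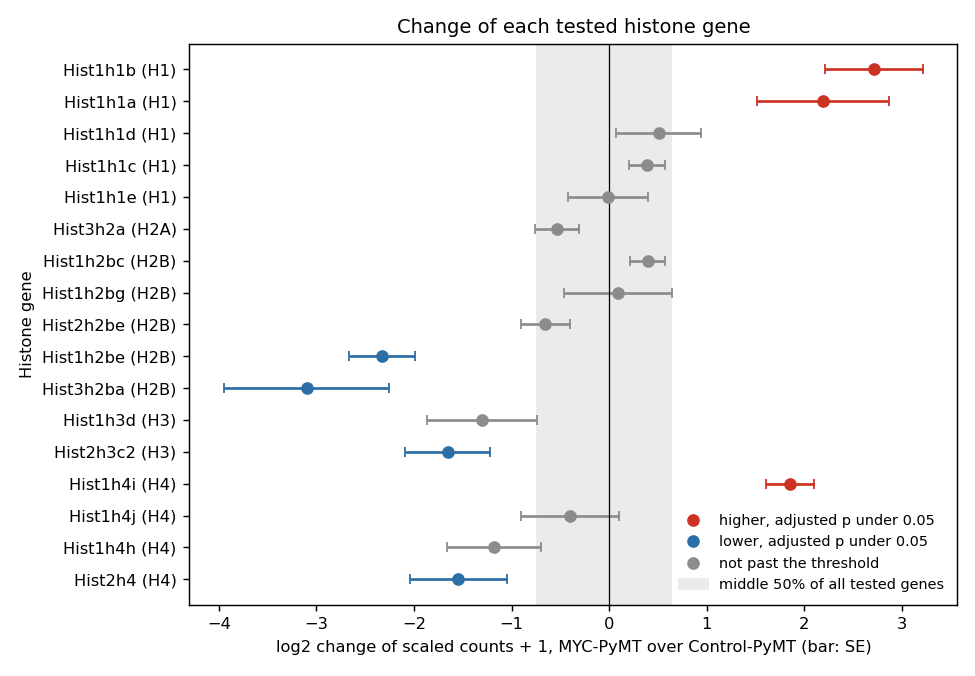
Log2 change of scaled counts plus 1, MYC-PyMT over Control-PyMT, of the 17 tested histone genes with bars for the SE. Red points rose, blue points fell, grey points did not pass the threshold, and the grey band is the middle 50% of all tested genes; Hist1h1b lies farthest to the right at 2.71 and Hist3h2ba farthest to the left at -3.10.

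Among the linker histones, Hist1h1b and Hist1h1a rose, both at low levels. Both passed the level filter through MYC-PyMT alone and so had to differ, and their p-values and calls under other settings are description only. Hist1h1b (ENSMUSG00000058773.2, chromosome 13, 21779883 to 21780625, minus strand) had 51.3 and 27.5 scaled counts in MYC-PyMT, against 5.61 and 4.25 in Control-PyMT. Both MYC-PyMT libraries lay above both Control-PyMT libraries. On the log2 scale it rose by 2.71 (SE 0.50) with a limma adjusted p of 0.00175, and it was called under each of the 15 alternatives that tested it. Hist1h1a (chromosome 13, 23763666 to 23764406) had 14.1 and 17.6 scaled counts in MYC-PyMT, against 0.935 and 5.95 in Control-PyMT, which is 14 and 16 reads in MYC-PyMT and 1 and 7 reads in Control-PyMT. Its log2 change was 2.19 (SE 0.67, adjusted p = 0.0226), and the call was lost when Control-PyMT replicate 1 was left out (log2 1.27, adjusted p = 0.0897), by DESeq2 (0.182), with each library scaled to its total (0.0539) and with the transcript length trend removed (0.0779).

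Hist1h1c, the most abundant member, did not pass. It had 5542 and 4576 scaled counts in MYC-PyMT, against 4019 and 3685 in Control-PyMT, a log2 change of 0.39 (SE 0.19, adjusted p = 0.114). Both MYC-PyMT values were above both Control-PyMT values, and the change stayed positive and short of the threshold under all 16 alternative settings, from 0.13 with library totals to 0.53 without MYC-PyMT replicate 2. Hist1h1d had 27 and 25 reads in MYC-PyMT and 16 and 28 reads in Control-PyMT (log2 0.51, adjusted p = 0.360). Hist1h1e had 34.2 and 24.2 in MYC-PyMT and 30.9 and 27.2 in Control-PyMT (log2 -0.0091, adjusted p = 0.988), and here the groups overlapped. Hist1h1e shares exon bases with Hist1h2be on the same strand, so reads of these genes may be split.

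Of the H2A genes only Hist3h2a was tested. It had 412 and 476 scaled counts in MYC-PyMT, against 711 and 582 in Control-PyMT. The MYC-PyMT libraries were both below the Control-PyMT libraries, but the difference fell short of the threshold (log2 -0.54, SE 0.23, adjusted p = 0.0749). It passed in the same direction with upper-quartile scaling (-0.65, adjusted p = 0.0355), library totals (-0.79, adjusted p = 0.0157) or the length trend removed (-0.64, adjusted p = 0.0410). Hist3h2a (chromosome 11, 58954685 to 58956830, plus strand) starts at the same base as Trim17, and 32.1% of its 31-base words are also in Trim17 transcripts. Trim17 itself had 25.2 and 29.7 scaled counts in MYC-PyMT and 25.3 and 25.5 in Control-PyMT. The other H2A members, Hist1h2ac and Hist2h2ac, had 1 or 2 reads in each MYC-PyMT library and 0 to 4 in the Control-PyMT libraries.

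The tested H2B genes differed in level and in direction. Hist1h2bc, the most abundant of them, had 3177 and 2946 scaled counts in MYC-PyMT, against 2413 and 2245 in Control-PyMT, and did not pass (log2 0.39, SE 0.18, adjusted p = 0.0951). Both MYC-PyMT values lay above both Control-PyMT values, and the log2 change was 0.14 with library totals and 0.045 with the length trend removed. Hist2h2be (chromosome 3, 96221119 to 96223738) had 205 and 195 scaled counts in MYC-PyMT, against 326 and 303 in Control-PyMT. Here the groups lay apart in the other direction, just short of the threshold (log2 -0.65, SE 0.25, adjusted p = 0.0525). It passed under 5 of the 16 alternatives, among them TMM scaling (adjusted p = 0.0424) and library totals (log2 -0.91, adjusted p = 0.0150).

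Hist1h2be fell the most among members with a mean of at least 50 scaled counts in the higher group. It had 38.2 and 28.6 scaled counts in MYC-PyMT, against 189 and 153 in Control-PyMT. Both MYC-PyMT libraries were far below both Control-PyMT libraries. It fell by 2.33 on the log2 scale (SE 0.34, limma adjusted p = 0.000453) and was called under each of the 16 alternatives. The annotated transcript joins an exon at 23620916 to 23621124 to one at 23583670 to 23585966 (chromosome 13, minus strand) across 34949 bases. Its exons overlap Hist1h1e and the pseudogene Gm11398 on the same strand. The overlapping Hist1h1e did not pass, with the values given above. Hist3h2ba, which passed the level filter through Control-PyMT alone and so had to differ, had no read and 6 reads in MYC-PyMT, against 28 and 23 reads in Control-PyMT. In scaled counts it averaged 3.30 ± 4.66 in MYC-PyMT and 22.9 ± 4.70 in Control-PyMT (SD, n = 2 each). At the depth of MYC-PyMT replicate 1 a count of 0 allows up to 3 reads, or 3.02 scaled counts. The log2 change was -3.10 (SE 0.85, adjusted p = 0.0133), and the call was lost without either Control-PyMT library (adjusted p = 0.176 without replicate 1 and 0.143 without replicate 2) and by DESeq2 (0.0701). It was -1.64 without MYC-PyMT replicate 1, the library with no read, and -4.56 without MYC-PyMT replicate 2, both called. Hist3h2bb-ps, the pseudogene that shares 44.1% of its 31-base words with Hist3h2ba, had 1 and 3 reads in MYC-PyMT and 5 and 5 in Control-PyMT.

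Hist1h2bg had 10.1 and 15.4 scaled counts in MYC-PyMT and 7.48 and 17.8 in Control-PyMT, and the groups overlapped. Its log2 change of 0.09 did not pass (adjusted p = 0.907). More than 50% of its 31-base words, 56.3%, are found in other genes. The 5 H2B members below the filter, Hist1h2bb, Hist1h2bh, Hist1h2bj, Hist1h2bp and the pseudogene, had 1 to 9 reads in the MYC-PyMT libraries and 0 to 5 in the Control-PyMT libraries.

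The H3 genes had the lowest summed level of the core histones. Hist2h3c2 (chromosome 3, 96238108 to 96239127, minus strand) had 9.06 and 8.79 scaled counts in MYC-PyMT, against 29.9 and 30.6 in Control-PyMT. It fell, with replicates close together and no overlap (log2 -1.65, SE 0.44, limma adjusted p = 0.0116). Hist2h3c2 passed the level filter through Control-PyMT alone and so had to differ. The call ended without Control-PyMT replicate 2 (adjusted p = 0.0523) and by DESeq2 (0.107). Of its 31-base words, 64.2% are also in Gm20634, annotated as a processed transcript 96245554 to 96248509 on the same chromosome, so its reads may be split between copies and its value is uncertain. Hist1h3d had 4.03 and 12.1 scaled counts in MYC-PyMT and 17.8 and 20.4 in Control-PyMT (log2 -1.30, adjusted p = 0.0830), and did not pass. Its value rests on 1 library: the log2 change was -0.61 without MYC-PyMT replicate 1 (adjusted p = 0.468) and -2.00 without MYC-PyMT replicate 2 (0.0122, which passed). It also passed with the length trend removed (0.0378). The other 4 H3 genes, Hist1h3a, Hist1h3c, Hist1h3e and Hist1h3f, had 0 to 8 reads in the MYC-PyMT libraries and 0 to 6 in the Control-PyMT libraries.

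Among H4 genes, Hist1h4i rose and Hist2h4 fell. Hist2h4 passed the level filter through Control-PyMT alone and so had to differ, while Hist1h4i passed it through both groups. Hist1h4i (ENSMUSG00000060639.5, chromosome 13, 22040636 to 22041362, minus strand) had 808 and 1119 scaled counts in MYC-PyMT, against 282 and 244 in Control-PyMT. Both MYC-PyMT libraries were far above both Control-PyMT libraries. It rose by 1.85 on the log2 scale (SE 0.24, limma adjusted p = 0.00026), which is 3.61-fold. The gene was called under all 16 alternatives, with log2 changes from 1.29 with the length trend removed to 2.09 without MYC-PyMT replicate 1. Hist2h4 (chromosome 3, 96261682 to 96263311) had 5.03 and 6.59 scaled counts in MYC-PyMT, against 15.9 and 22.1 in Control-PyMT. It fell by 1.55 on the log2 scale (SE 0.50, adjusted p = 0.0277), a call that ended without MYC-PyMT replicate 1 (adjusted p = 0.0820), without Control-PyMT replicate 2 (0.0930) and by DESeq2 (0.223).

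Hist1h4h had 29.2 and 42.9 scaled counts in MYC-PyMT, against 49.6 and 133 in Control-PyMT. The Control-PyMT libraries differed widely, and the difference fell short of the threshold (log2 -1.18, SE 0.48, adjusted p = 0.0689). The log2 change was -0.47 without Control-PyMT replicate 2 (adjusted p = 0.436). It was -1.88 without Control-PyMT replicate 1 (0.0424) and -1.94 with the length trend removed (0.0114), and both passed. Hist1h4j had 13.1 and 30.8 scaled counts in MYC-PyMT and 22.4 and 32.3 in Control-PyMT, with overlapping groups (log2 -0.40, adjusted p = 0.534). Of the 7 H4 genes below the filter, Hist1h4a had 5 and 6 reads in MYC-PyMT and none in either Control-PyMT library, where a count of 0 allows up to 2.81 and 2.55 scaled counts. It was the only member below the filter that passed when the level filter was left out (limma adjusted p = 0.0082). Hist1h4d had 3 and 14 reads in MYC-PyMT, against 1 and 3 in Control-PyMT, and Hist1h4c had 7 and 15 in MYC-PyMT, against 3 and 9 in Control-PyMT. Hist4h4 had 6 and 9 reads in MYC-PyMT and the same counts, 6 and 9, in Control-PyMT.

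The 18 members below the filter together had 71 and 87 reads in MYC-PyMT and 34 and 69 reads in Control-PyMT, and no library held more than 15 reads of any of them. Without a read in MYC-PyMT replicate 1 were Hist1h3f, Hist1h4k and Hist1h4n. In Control-PyMT replicate 1 these were Hist1h2bh, Hist1h2bj, Hist1h2bp, Hist1h3c, Hist1h4a, Hist1h4f and Hist1h4n, and in Control-PyMT replicate 2 Hist2h2ac and Hist1h4a. Mean scaled counts were larger in MYC-PyMT for 14 of them and smaller for 4. The same count over all genes below the filter was not made, so these numbers support no statement about them as a set. Of the 31-base words in the 17 of these members with an annotated transcript, 11.5% to 87.5% (median 52.7%) occur in other genes, so single values are uncertain.

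Summed by type, the H1, H2A, H2B and H4 levels were mostly those of 1 gene, and the H3 level was not. H1 genes summed to 5171 ± 704 scaled counts in MYC-PyMT and 3909 ± 229 in Control-PyMT (SD, n = 2 each), and Hist1h1c alone held 97.8% to 98.7% of the sum in each library. H4 genes summed to 882 and 1257 in MYC-PyMT, against 382 and 459 in Control-PyMT. Without Hist1h4i the H4 sum was 73.5 and 138 in MYC-PyMT and 100.1 and 215 in Control-PyMT, so the sums then overlapped. H2B genes summed to 3458 and 3211 in MYC-PyMT, against 2968 and 2754 in Control-PyMT. Without Hist1h2bc the H2B sum was 281 and 265 in MYC-PyMT, against 556 and 510 in Control-PyMT. H2A genes summed to 415 and 479 in MYC-PyMT and 716 and 584 in Control-PyMT, and H3 genes to 28.2 and 35.2 in MYC-PyMT and 55.2 and 62.9 in Control-PyMT. Hist2h3c2 held 9 of 28 and 8 of 32 H3 reads in MYC-PyMT, against 32 of 59 and 36 of 74 in Control-PyMT. Such sums add reads of transcripts of unequal length and carry no test. As a share of all reads the H2B genes held 0.0100% and 0.00919% in the MYC-PyMT libraries, against 0.00984% and 0.00986% in Control-PyMT, and the groups overlapped. The groups also overlapped for H1 on this scale, with 0.0165% and 0.0134% in MYC-PyMT and 0.0135% and 0.0134% in Control-PyMT.

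**Figure D4:**
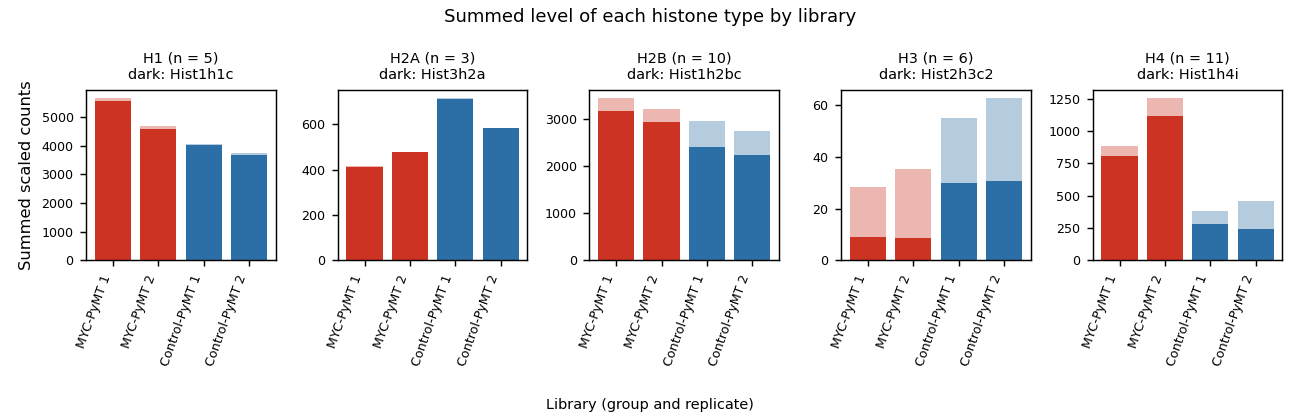
Summed scaled counts of each histone type in the 4 libraries, MYC-PyMT in red and Control-PyMT in blue, with the most abundant gene of each type as the dark part of the bar. The H4 bars of MYC-PyMT, 882 and 1257, stand above those of Control-PyMT, 382 and 459, and the pale parts above Hist1h4i overlap between the groups, at 73.5 and 138 in MYC-PyMT and 100.1 and 215 in Control-PyMT.

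Promoters of the members were compared to see which short motifs they have in common. RefSeq sequences of GRCm38.p6, from 250 bases before to 50 bases after the start, were found for 29 of the 35 members and searched on both strands. CCAAT, the box bound by NF-Y, was present in 22 of 29 (75.9%), against 37.4% of all 32851 promoters in the table, and TATAAA in 18 of 29 (62.1%), against 13.6%. CCAAT was in all 19 promoters of H1, H2A, H2B and H3 genes and in 3 of 10 H4 promoters. In Hist2h3c2 the only CCAAT match began 14 bases after the start. TATAAA matches began from 250 bases before the start (Hist1h4f) to 41 bases after it (Hist1h4a), so its share counts the letters anywhere in the window. The Hist1h2be window lies at exon 1 of its annotated transcript, which an intron of 34949 bases separates from exon 2. ATTTGCAT, the octamer known from H2B promoters, was in 5 members (17.2%, against 1.74%), of which 3 were H2A and 2 were H2B genes. CACGTG, the E-box that MYC and MAX can bind, was in none of the 29, against 7.15% of all promoters. No motif contains another. A match is a description of letters and not a binding site, and no match says only that the letters are not in this window. Hist1h1b and Hist1h4i rose under every setting that tested them, but Hist1h1b passed the level filter through MYC-PyMT alone and was left out by a filter of 50. Their promoters are printed with every match in capitals.
Hist1h1b (chr13:21780576-21780875, minus strand): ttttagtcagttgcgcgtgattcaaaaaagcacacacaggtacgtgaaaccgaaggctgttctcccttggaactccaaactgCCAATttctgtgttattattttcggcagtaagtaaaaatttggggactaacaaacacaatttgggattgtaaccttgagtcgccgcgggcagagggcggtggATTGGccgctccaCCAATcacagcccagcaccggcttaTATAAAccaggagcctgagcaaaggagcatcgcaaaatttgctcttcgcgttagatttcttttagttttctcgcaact
Hist1h4i (chr13:22041313-22041612, minus strand): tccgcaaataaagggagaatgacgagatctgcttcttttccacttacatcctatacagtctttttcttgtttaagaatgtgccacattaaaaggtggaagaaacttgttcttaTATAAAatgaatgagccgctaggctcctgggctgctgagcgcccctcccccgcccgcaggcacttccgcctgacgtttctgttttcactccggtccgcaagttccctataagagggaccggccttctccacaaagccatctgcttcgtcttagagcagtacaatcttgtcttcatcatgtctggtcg
In Hist1h1b, CCAAT boxes on either strand began 168, 66 and 53 bases before the start and TATAAA 28 bases before it. In Hist1h4i the only match was TATAAA at 137 bases before the start.

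Lists of genes that act with the histone genes were described in the same fit. They were chosen with earlier results of these data known, so the counts in each list are description only. Of all tested genes, 23.3% rose and 24.6% fell, and the counts of every list below stand beside these shares. Of 27 S phase and DNA replication genes, 26 rose and none fell, with a median log2 change of 1.31, and Cdk2 did not pass (log2 0.25, adjusted p = 0.328). Ccne1, the cyclin of S phase entry, had 1891 and 1715 scaled counts in MYC-PyMT, against 385 and 312 in Control-PyMT (log2 2.37). Cdt1, which licenses replication origins, had 1356 and 1556 in MYC-PyMT, against 180 and 316 in Control-PyMT (log2 2.60). Ccna2, the cyclin of S and G2 phases, rose by 1.69 on the log2 scale.

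Of 22 genes that make, process or degrade histone messages, 15 rose, none fell and 7 did not pass (median log2 0.78). Slbp, the stem-loop binding protein, had 1886 and 2008 scaled counts in MYC-PyMT, against 1487 and 1211 in Control-PyMT (log2 0.54, adjusted p = 0.0445). Zfp473, which links the stem-loop complex to the U7 RNP, rose by 1.79 (421.7 and 398 in MYC-PyMT, against 116 and 120 in Control-PyMT), and Lsm11, a protein of that RNP, by 0.70. Lsm10, its partner in the ring, did not pass (log2 0.08, adjusted p = 0.780), nor did Npat (0.33, adjusted p = 0.238) and Casp8ap2 (0.29, adjusted p = 0.335), which act at the histone loci. Snrpf and Snrpg, with the smallest p of the list, rose by 1.69 and 1.68, and their proteins are also part of the splicing RNPs.

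Histone genes outside the replication-dependent set mostly have ordinary polyadenylated messages, and 6 of the 11 tested rose while 5 did not pass (median log2 0.62). H2afx, the variant phosphorylated at DNA breaks, whose message exists with and without a tail, had 3167 and 3367 scaled counts in MYC-PyMT, against 627 and 772 in Control-PyMT (log2 2.23). Cenpa, the centromeric H3 variant, rose by 1.97, and H2afz by 1.72 (10109 and 13476 in MYC-PyMT, against 3722 and 3355 in Control-PyMT). H1f0, the linker histone of differentiated cells, did not pass (log2 0.06, adjusted p = 0.823), nor did H3f3a (0.02, adjusted p = 0.942), and H3f3b lay just past the threshold (0.59, adjusted p = 0.0493). Of 23 histone chaperone and deposition genes, 16 rose, none fell and 7 did not pass (median log2 1.02). Nap1l1, a chaperone of H2A and H2B, had 27910 and 27404 scaled counts in MYC-PyMT, against 7510 and 5484 in Control-PyMT (log2 2.11). Chaf1b, of the complex that deposits H3 and H4 at replication forks, rose by 1.73, and Mcm2, a helicase subunit that also binds H3 and H4, by 1.56.

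**Figure D5:**
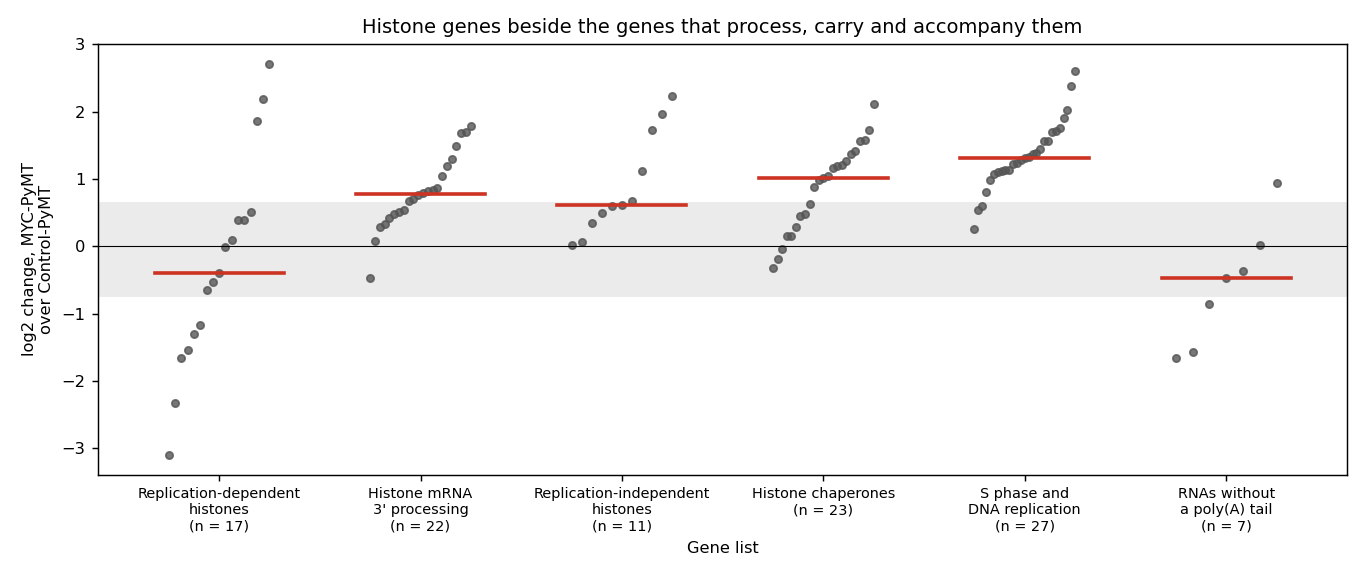
Log2 change of each tested gene (points, sorted) in 6 gene lists, with the median as a red line and the middle 50% of all tested genes as a grey band. The 17 replication-dependent histone genes spread from -3.10 to 2.71 around a median of -0.40, and the S phase genes have a median of 1.31.

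Genes of RNAs known to lack a poly(A) tail had reads at low levels. Whether those reads, or those of the histone genes, come from RNA without a tail was not tested. The 48 rows of such RNAs, chosen by name or by an annotated type such as small nuclear or small nucleolar RNA, summed to 593 and 633 scaled counts in MYC-PyMT, against 687 and 739 in Control-PyMT. Of the 7 tested, none rose, 2 fell and 5 did not pass (median log2 -0.48), while 24.6% of all tested genes fell. Those that fell were Gm22009 (log2 -1.66) and Gm27572 (log2 -1.57). Rn7sk, the most abundant, had 292 and 292 scaled counts in MYC-PyMT and 363 and 392 in Control-PyMT (log2 -0.37, adjusted p = 0.218). Rpph1, the RNA of RNase P, had 77.5 and 130 in MYC-PyMT and 64.5 and 41.6 in Control-PyMT (log2 0.94, adjusted p = 0.0707). Their part in the values of the histone genes was not tested.

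Markers of cell types were described in the same way, beside the 23.3% of all tested genes that rose and the 24.6% that fell. Counts near these shares, such as those of the stromal and endothelial list, are no result about the list. The luminal markers Krt8 and Epcam were at 22211 and 28747, and 19648 and 19804, scaled counts in MYC-PyMT, against 28743 and 27667, and 26099 and 23374, in Control-PyMT, and of 11 luminal markers 7 fell and none rose. The smallest p were those of Pgr (log2 -7.88), Foxa1 (-5.09) and Esr1 (-2.79), the progesterone receptor, a luminal transcription factor and the oestrogen receptor. The luminal list summed to 110760 and 112568 in MYC-PyMT and 146442 and 144450 in Control-PyMT. Of 12 tested markers of T and NK cells, 10 fell, led by Gzma (log2 -5.12), Cd8a (-4.05) and Cd3g (-3.66), and 1, Cd4, rose (log2 1.64). Cd4 had 130 and 141 scaled counts in MYC-PyMT, against 45.8 and 39.9 in Control-PyMT. All 15 listed summed to 287 and 344 in MYC-PyMT and 849 and 862 in Control-PyMT. Most of the MYC-PyMT sums was Cd4 and Lck, which had 94.6 and 131 there and did not pass. Of 14 neutrophil markers 7 rose, among them Prtn3 (log2 2.88) and Ngp (4.11), and 2, Ltf (-1.94) and Lcn2 (-0.87), fell. The neutrophil list summed to 71237 and 71129 in MYC-PyMT and 151501 and 120885 in Control-PyMT. Ltf and Lcn2 held most of that, so the sum follows these 2 genes and not the 7 that rose. S100a8, whose promoter drives the Cre, had 1564 and 2524 scaled counts in MYC-PyMT and 2338 and 639 in Control-PyMT and did not pass (adjusted p = 0.260). Leukocyte, B cell and macrophage markers (1 of 9 rose, Cd68 at log2 1.38, and 4 fell, among them Ptprc at -1.09 and Ms4a1 at -2.91) summed to 13201 and 15485 in MYC-PyMT and 14090 and 15717 in Control-PyMT. Stromal and endothelial markers (3 of 10 rose, among them Cdh5 at log2 1.02, and 2 fell, Dcn at -2.22 and Vwf at -2.32) summed to 20072 and 25899.9 in MYC-PyMT and 16477 and 26166 in Control-PyMT. No marker in these lists was at 0 in all 4 libraries. The part of cell make-up in the histone gene values was not tested.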

How the data were processed

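Libraries were poly(A)-selected with a stranded kit from 500 ng of RNA and 8 PCR cycles, per the labels' protocols, which give RNA integrity numbers of 3.3 to 9.6 without tying them to libraries. Reads were aligned with HISAT2 to mm10 (GRCm38.p5) and DESeq2 was used, per the submitters' processing notes. No source used here names the counter, its strand setting or how it treated multiply mapped reads. The deposited signal is scaled counts, and 100% of values were whole reads within 0.001 reads once divided by 1 step per library. Totals were 31783846 to 34190913 reads. Floors (3 reads) cover counting error only. Each SE is that of the limma fit to the libraries, and each SD is between the libraries of a group.

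limma 3.58.1 (R 4.3.3, variance trend) was fitted to log2(value + 1) of all 16725 genes with at least 10 in at least 2 libraries. This scale understates changes of low genes. On simulated counts, the fit recovered 2% of 1.5-fold changes, 50% of 2-fold changes and 100% of 4-fold and 8-fold changes. The changed genes there averaged at least 50 scaled counts, and only 7 of the 17 tested members averaged that in either group. Changes of 2-fold or less in members that did not pass can therefore have been missed. Larger changes can have been missed too, as Hist1h3d (log2 -1.30) and Hist1h4h (-1.18) did not pass, and no limit was simulated for lower levels. Alternatives used edgeR 4.0.16 and DESeq2 1.42.0 on recovered reads, other scalings, filters and pseudocounts, a replicate block and leaving out each library. Library totals, removal of the length trend and leaving out members that share sequence were added after the data had been seen.

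GENCODE mouse release 21 (GRCm38) held 20463 of the table's 20555 IDs. Stem-loops were sought in the longest protein-coding transcript, and shared sequence as 31-base words. The members and gene lists were chosen with earlier results of these data known. Named were all members, in full where called or where either group averaged 50 scaled counts, the 3 genes of each list with the smallest p, Myc and S100a8, and genes whose role the text describes.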

Additional observations from a re-analysis of the deposited data

How the results depend on the processing

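Of 261 log2 changes of single histone genes under the alternatives, 225 had the same direction and side of the threshold, 14 passed only under the alternative, 12 lost their call and 10 turned sign, the last in 3 genes that did not pass. Hist1h1e (-0.0091) was 0.019 by DESeq2 and ran from -0.25 to 0.23 with 1 library left out. Hist1h2bg (0.091) was -0.016 with upper-quartile scaling, -0.052 by edgeR, -0.15 with library totals and -0.55 with the length trend removed, and ran from -0.48 to 0.67 with 1 library left out. Hist1h4j ran from -0.99 to 0.19 with 1 library left out. The cause of these turns was not tested.

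Histone genes called higher numbered 3, and 1 with a level filter of 50, which leaves 6 members to test. Those called lower numbered 4, with 2 under that filter, 1 by DESeq2, 8 with the length trend removed and 2 without members that overlap or share over 50% of their 31-base words. Leaving out 1 library gave 2 to 3 higher and 1 to 6 lower, and 5236 to 6480 called genes in all, against 8010. The values of 1 and 5236 came without Control-PyMT replicate 2. Upper-quartile scaling shifted the median of all genes by -0.11.

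As a share of library totals, log2 ratios of sums were 0.15 for H1 (0.40 in scaled counts), -0.79 for H2A (-0.54), -0.034 for H2B (0.22), -1.16 for H3 (-0.90) and 0.093 for all members (0.35). The H2B ratio changed sign. Without the most abundant gene they were 0.98 for H1, -0.97 for H2B, -0.34 for H3 and -0.57 for H4 (1.35 with it).

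With the replicate number as a block, 3 members were higher and 5 lower, with 8039 genes called in all, and Hist1h4h passed (adjusted p = 0.0171). Same-numbered libraries did not deviate together (correlation -0.089), so the numbers were not taken as pairs. Without a level filter, 4 members were higher and 4 lower, and of the 18 members below the filter Hist1h4a alone passed. Those members have few reads, which limits what can be detected among them.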
